A study of Mus musculus with 2 samples.

Results

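The genes followed here were 7 ligands of the bone morphogenetic protein (BMP) family, Bmp2, Bmp3, Bmp4, Bmp5, Bmp6, Bmp7 and Gdf5, and 3 secreted BMP antagonists, Grem1, Nog and Chrd. They were picked by their symbols in the gene tables, and all 10 were found among the 19430 named genes of both sections. The study examined how loss of Nf1, the gene mutated in neurofibromatosis type 1, alters fracture repair. Its spatial data came from calluses of the distal tibia on day 10 after fracture of 8-week-old mice, 1 control mouse with the genotype Nf1[+/flox] and 1 mouse with the genotype Postn-cre;Nf1[flox/-], called Nf1Postn. In the Nf1Postn mouse, Cre is driven by the periostin promoter, which is active in periosteal cells, and the other Nf1 allele is a deletion in every cell, whereas the control carried a floxed and a wild-type allele and no Cre. The paper embedded control and Nf1Postn calluses as a pair in the same block, and 2 sections were measured. The labels number the sections as biological replicates, whereas the paper speaks of 1 control and 1 Nf1Postn callus. They were therefore read here as sections of 1 pair of animals, which the sources do not state outright. On this reading no test between genotypes was possible, and a difference below is one between these calluses.

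BMP ligands are secreted dimers that bind pairs of type I and type II serine/threonine kinase receptors, which phosphorylate SMAD1, SMAD5 and SMAD9. Together with SMAD4 these proteins act in the nucleus on targets such as the Id genes. Noggin (Nog), chordin (Chrd) and gremlin 1 (Grem1) bind ligands outside the cell and keep them from their receptors, and their genes are often induced by BMP signaling itself. In a fracture callus, BMPs are known for driving periosteal progenitors into cartilage and bone.

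Levels are given as CPM, the unique molecular identifiers (UMIs) of a gene per 1000000 UMIs of the spots pooled, with exact Poisson 95% intervals that cover counting error only. A spot of the capture grid is a small area that can hold several cells, and fewer cells of a type cannot be told apart from less RNA per cell. Since each gene is read by its own probes, levels were compared between groups of spots and not between genes. The section 1 control held 1700 spots with a median of 7053 UMIs, section 2 control 1778 spots with 5718.5, section 1 Nf1Postn 1341 spots with 2030, and section 2 Nf1Postn 1556 spots with 3239.75. Nf1 was at 87.8 and 79.0 CPM in the control and at 65.6 and 49.6 CPM in the Nf1Postn callus (sections 1 and 2), and whether its probes lie in the deleted part is not given in the sources used here. Skeletal muscle markers, 7 genes in sum, took 12089 to 19264 CPM in the control and 56720 to 96942 CPM in the Nf1Postn callus, whereas 13 cartilage markers took 32620 to 51616 CPM and 5168 to 9502 CPM.

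The members were sparse. Chrd had a UMI in 17.9% of the 6380 spots, Bmp3 in 12.5%, Bmp4 in 9.89% and Gdf5 in 1.32%, and no spot held more than 7 UMIs of any member. The totals over all spots ran from 88 UMIs for Gdf5 and 127 for Bmp7 to 1067 for Bmp3 and 1433 for Chrd. Low totals therefore limit what follows for Gdf5, Bmp7 and Grem1 (183 UMIs) most.

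To describe where the members were expressed, spots were grouped by their transcriptomes into 13 regions, with the members and 50 other BMP pathway genes left out of the grouping, and each region is called by its leading genes. Region 1 was led by Acp5, Siglec15, Ocstamp and Mmp9, genes of osteoclasts, and 84.4% of its 455 section 1 control spots were woven bone in the study's annotation. Region 3 was led by Gpnmb, Ccl7 and Fbn2, and 92.1% of its section 1 control spots were assigned to ossifying perichondrium. Region 6, led by Mepe and Bglap, held bone matrix genes and also globin genes. Region 8 was led by Cadm4 and Cxcl14 and was mostly progenitor tissue in that annotation (80.3%). Region 10 was led by Col10a1 and Ihh, and region 11 by Ucma, Scrg1, Cnmd and Acan, genes of cartilage. The section 1 control spots of region 10 were annotated as cartilage (75.6%) and woven bone (24.4%). Those of region 11 were annotated as cartilage (50.7%) and ossifying perichondrium (48.6%).

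Of the 10 members, 4 were higher in region 1 of the control callus than in its other spots. The count used at least a 2-fold ratio the same way in both sections, which 1.66% of the 12562 genes tested reached. These 4 were the ligands Bmp3, Bmp4 and Bmp7 and the antagonist Nog. Bmp3, which unlike other members of the family restrains bone formation, stood at 81.5 CPM (95% interval 73.4 to 90.2) in region 1 of section 1 and 62.1 CPM (53.3 to 71.9) in section 2. Over both sections it was 3.48-fold above the other control spots, a log2 ratio of 1.80 (1.61 to 1.99). Region 1 made up 29.1% of all control UMIs and 58.8% of those of Bmp3.

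Bmp4, an osteogenic ligand also known from limb and marrow stroma, was at 44.3 CPM (38.4 to 50.9) and 37.1 CPM (30.4 to 44.8) in region 1 of sections 1 and 2, against 15.7 CPM in the other control spots, a 2.65-fold ratio. Bmp7, another osteogenic ligand, was at 10.5 and 7.28 CPM there against 2.41 CPM elsewhere, 3.83-fold, on 69 UMIs. Nog was at 21.0 CPM (17.0 to 25.6) and 25.7 CPM (20.2 to 32.2) against 9.88 CPM, 2.31-fold. For each of these genes both sections lay above the level of the remaining spots, and the ratio held in each section separately. With the mean of log2(CPM + 1) over spots, only Bmp3 and Bmp4 of these passed the rule. Bmp7 had a UMI in 8.34% of the region 1 control spots, too few for such a mean to differ by 1 log2 unit. Region 1 was among the deeper regions, with a median of 9112 UMIs per spot, and the part of depth in these ratios was removed only as far as CPM does so.

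Gdf5 showed the opposite arrangement. Gdf5, a ligand of joint and cartilage condensations, was the member higher in region 11, and region 1 was where it was lower by the same rule, a mark that 5.29% of genes reached there. It was at 9.95 CPM (6.16 to 15.2) and 6.34 CPM (2.33 to 13.8) in region 11 of sections 1 and 2, against 2.34 CPM in the other control spots, 3.77-fold. In region 1 it was at 1.09 CPM (0.355 to 2.55) and 1.39 CPM (0.378 to 3.55). Higher ratios were reached in region 11 by 2.1% of genes. Regions 3 and 11 together held most of its control UMIs, 38.8% and 33.8%.

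Bmp3 and Bmp4 were the 2 members lower in region 11, where lower ratios were common (15% of genes). Bmp3 was at 10.9 and 7.39 CPM there and Bmp4 at 8.06 and 4.22 CPM, 4.09-fold and 3.70-fold below the other control spots. In region 3, Bmp4 and Bmp7 were lower (2.3% of genes). Bmp4 was at 12.4 and 12.3 CPM and Bmp7 at 0.866 and 1.68 CPM, the latter on 9 UMIs.

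**Figure D1:**
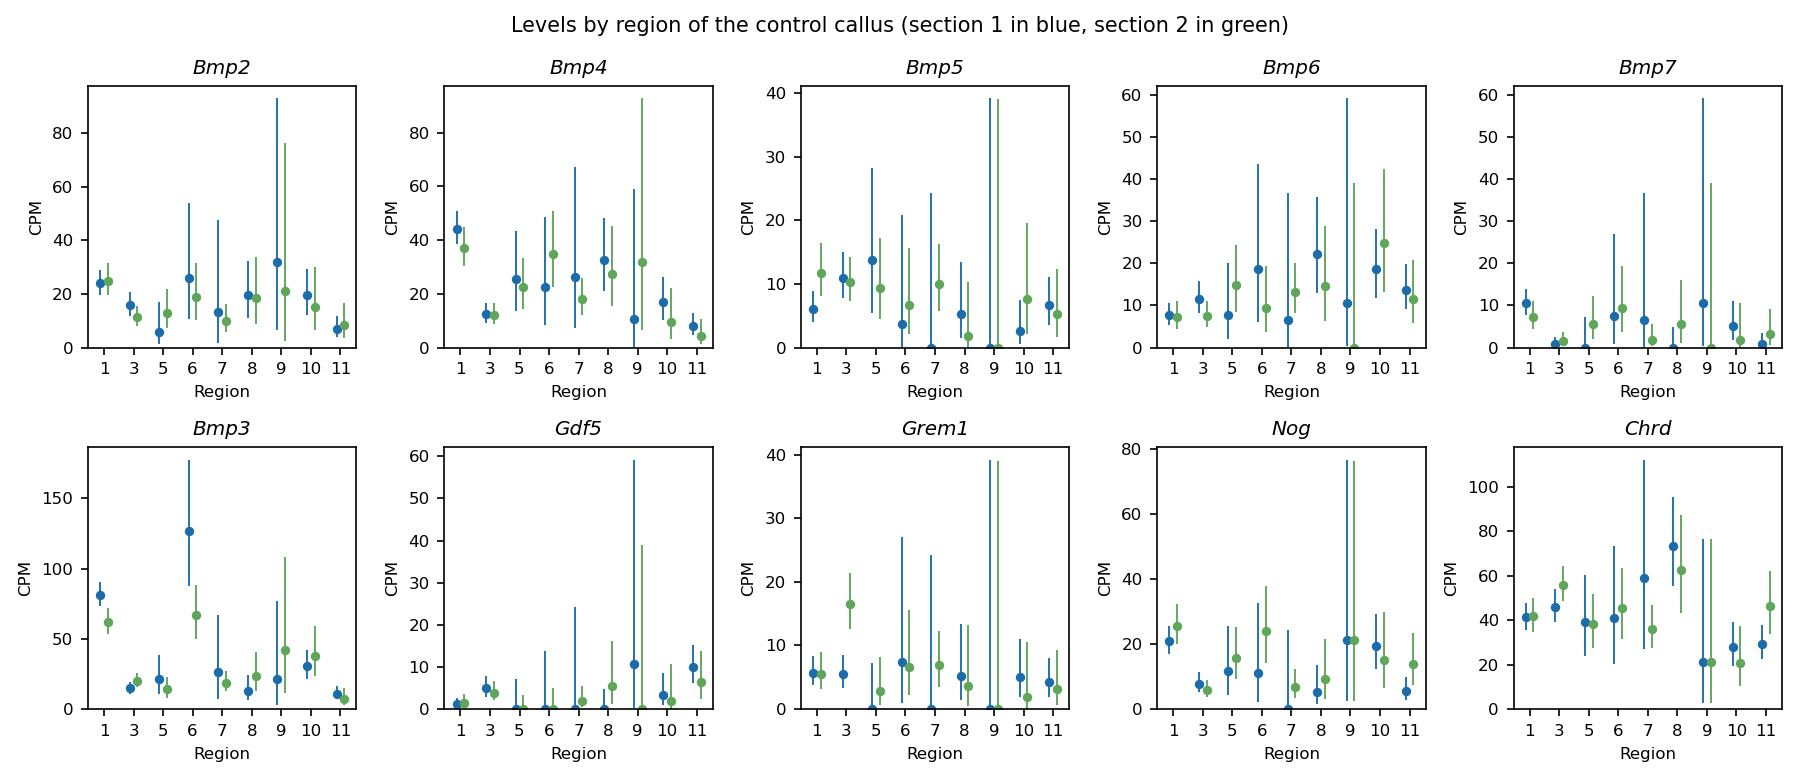
Pooled level in CPM (linear axes that start at 0, 1 panel per gene) in the 9 regions with at least 20 control spots in each section. Points are section 1 (blue) and section 2 (green) of the control callus, and bars are exact Poisson 95% intervals. Bmp3, Bmp4 and Nog were high in region 1, Gdf5 was at 9.95 and 6.34 CPM in region 11, and region 9, with shallow spots, has wide intervals throughout.

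Region 6 had a single member above the rule, Bmp3 (0.701% of 11562 genes). It stood at 127 CPM (88.0 to 178) in section 1 and 66.8 CPM (49.6 to 88.1) in section 2, so it was above region 1 in both sections, with intervals that overlapped those of region 1. The study's distal cortical bone spots of section 1 held 14 Bmp3 UMIs in 50 spots, 121 CPM, and its woven bone spots 79.4 CPM. In ossifying perichondrium it was at 18.7 CPM and in progenitor tissue at 15.5 CPM. The other regions compared (5, 7, 8, 9 and 10) had no member past the rule in either direction. Over the 9 regions, 6 of 76 pairs of member and region were higher and 5 lower, where 2.14% and 3.89% of the pairs of all genes were.

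The remaining ligands passed the rule in no region compared, though their levels differed between regions. Bmp6 was at 18.6 CPM (11.7 to 28.2) and 24.8 CPM (13.2 to 42.3) in region 10, at 22.3 and 14.7 CPM in region 8 and at 13.7 and 11.6 CPM in region 11, which did not differ beyond their intervals. The highest level in section 1, 32.3 CPM (17.2 to 55.2), came from 13 UMIs in region 2, led by muscle genes. That region held 9 control spots in section 2 and no Bmp6 UMI there. Bmp6 was also read in region 2 of Nf1Postn, at 17.1 CPM (12.1 to 23.4) on 38 UMIs in 597 spots. In the study's cartilage spots of section 1 it was at 23.5 CPM (37 UMIs) against 9.62 CPM in woven bone. Region 1 had 7.64 CPM (5.32 to 10.6) and 7.28 CPM (4.51 to 11.1) of Bmp6, below region 10 beyond the intervals. Bmp2, a ligand required for the start of fracture healing, was at 24.0 and 24.97 CPM in region 1 and at 7.11 and 8.45 CPM in region 11. Over both sections it was 1.85-fold above the other control spots in region 1 and 2.34-fold below them in region 11. Bmp5 stayed between 6.11 and 11.8 CPM in regions 1 and 3 of both sections. In regions 8 and 10 it was at 3.82 and 4.10 CPM over both sections, on 5 and 7 UMIs.

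Chrd was the most evenly spread of the antagonists. Its control levels were 41.3 and 42.0 CPM in region 1, 46.2 and 56.0 CPM in region 3 and 29.4 and 46.5 CPM in region 11, and the highest were in region 8, with 73.4 CPM (55.4 to 95.3) and 62.5 CPM (43.3 to 87.3). The intervals of region 8 and region 3 overlapped in section 2. The study's progenitor spots had 67.3 CPM and its cartilage spots 22.8 CPM.

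Grem1 had a local peak in 1 section. In region 3 it was at 5.48 CPM (3.30 to 8.56) in section 1 but 16.5 CPM (12.6 to 21.3) in section 2, so the sections differed beyond their intervals. A disc of 300 μm radius in section 2, with 37 spots of which 36 belonged to region 3, held 34 of the 100 Grem1 UMIs of that control section, at 109 CPM (75.6 to 153), while the other control spots of the section had 5.59 CPM. Without this disc, region 3 of section 2 was at 7.66 CPM (4.96 to 11.3), an interval that includes the level of section 1. The disc was chosen after its values were seen, as the place with most Grem1 UMIs. The densest discs of the other members held at most 25.8% of the UMIs of their control section, the highest share being that of Gdf5 in section 2.

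**Figure D2:**
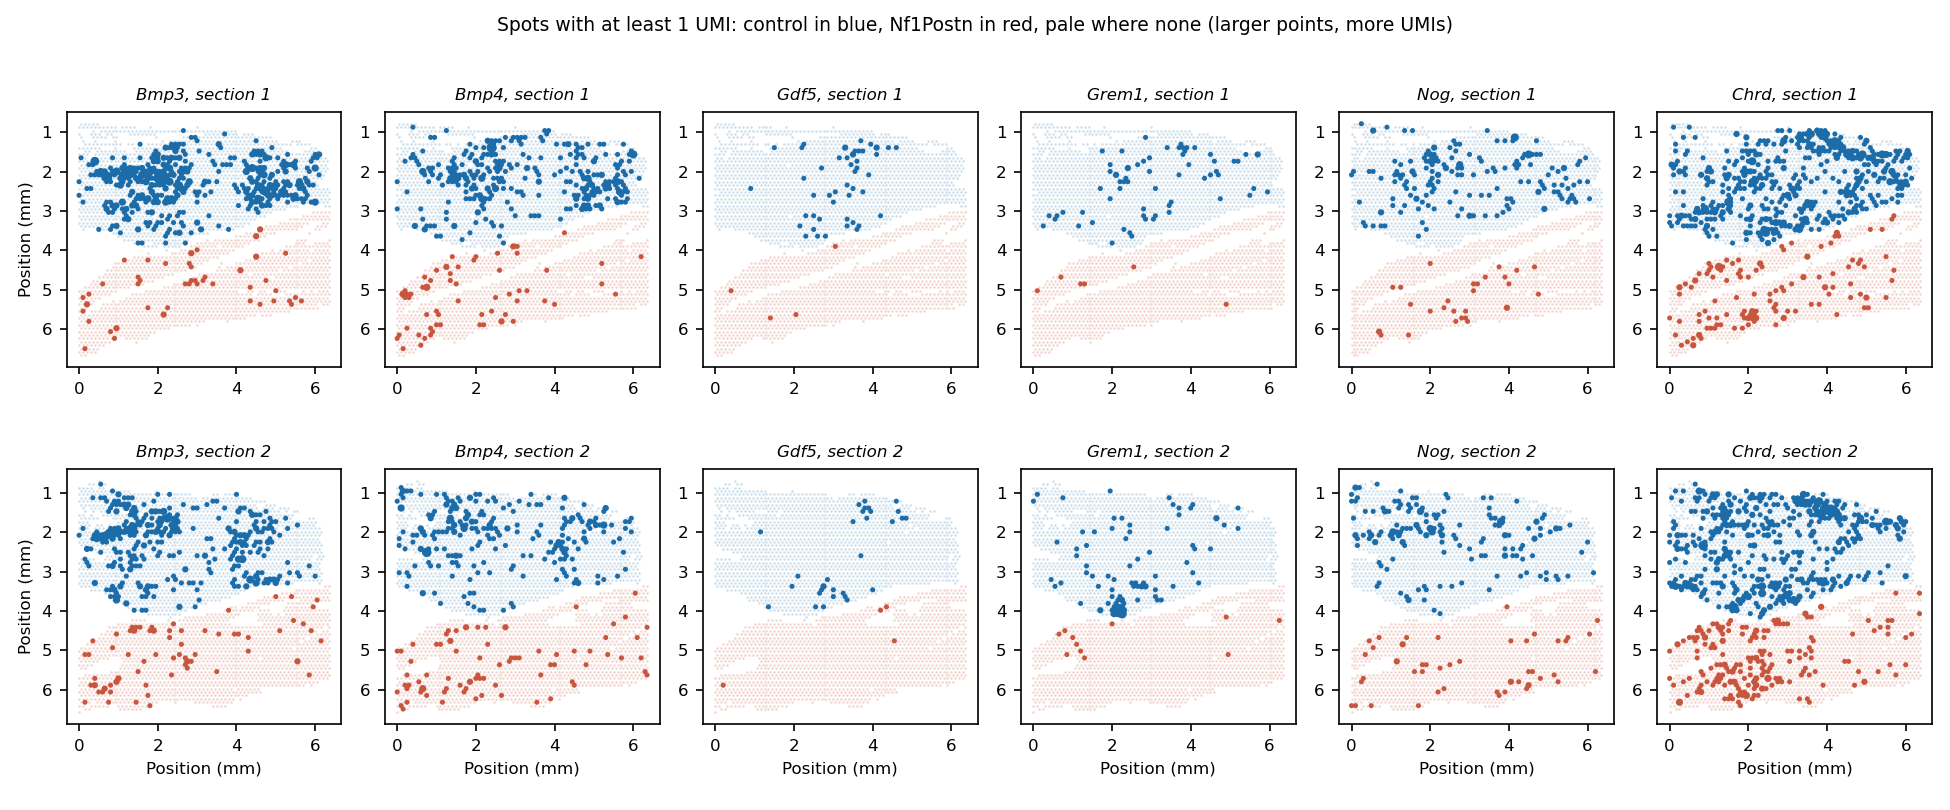
Position of the spots with at least 1 UMI of 6 members in section 1 (upper row) and section 2 (lower row), in mm. Control spots with a UMI are blue and Nf1Postn spots red, spots with none are pale, and larger points hold more UMIs. Bmp3 and Bmp4 fill areas on both sides of the control callus, Gdf5 lies between them, Chrd is spread over the whole callus, densest at parts of its rim, and Grem1 has its dense place in section 2.

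For members that the promoter table of RefSeq held (5 of the 10: Bmp4, Bmp5, Bmp6, Grem1 and Chrd), the 250 bases before the gene's start were read on the strand of the gene in GRCm38.p6. Those of Bmp4 are shown as a ligand with a regional pattern, and those of Chrd and Grem1 as antagonists with an even and a local one, at chr14:46390670-46390919 (minus strand), chr16:20732877-20733126 (plus) and chr2:113758649-113758898 (minus). Capitals mark GGCGCC, a GC-rich sequence that SMAD1 and SMAD5 are known to bind.
Bmp4: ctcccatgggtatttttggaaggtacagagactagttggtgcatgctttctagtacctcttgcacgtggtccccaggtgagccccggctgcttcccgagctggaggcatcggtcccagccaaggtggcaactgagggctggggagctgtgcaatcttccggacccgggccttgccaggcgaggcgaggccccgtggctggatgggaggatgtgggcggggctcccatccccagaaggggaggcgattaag
Chrd: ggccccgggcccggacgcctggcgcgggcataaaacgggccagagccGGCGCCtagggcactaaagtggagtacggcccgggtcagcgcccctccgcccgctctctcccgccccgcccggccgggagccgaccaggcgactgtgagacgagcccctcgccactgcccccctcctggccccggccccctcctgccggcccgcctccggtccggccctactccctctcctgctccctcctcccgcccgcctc
Grem1: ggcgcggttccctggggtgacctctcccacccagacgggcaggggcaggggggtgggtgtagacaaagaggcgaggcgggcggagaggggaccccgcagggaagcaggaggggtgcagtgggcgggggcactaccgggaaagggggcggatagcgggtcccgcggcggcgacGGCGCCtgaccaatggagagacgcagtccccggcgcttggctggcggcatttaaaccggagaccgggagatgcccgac
Chrd held GGCGCC 203 bases and Grem1 78 bases before the start, counted from the motif's first base, and Bmp4 held none. GGCGCC, which reads the same on both strands, was present in 9.59% of all 32851 promoters of the table over the same 250 bases. TGTGGT, the core sequence of RUNX factors, was searched on both strands and was in none of the 5 windows and in 14% of all promoters.

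The same arrangement appeared along the study's axis of distance from the fracture plane, which runs from 0 to 25 in its own units and covers 1344 control spots of section 1. Between the bin nearest the plane (0 to 4) and the farthest (20 to 25), 4 of the members were higher far from it, where 7.73% of 11242 genes were, and 1 was lower (4.53% of genes). Bmp4 was at 8.32, 17.6, 34.6, 35.0 and 49.7 CPM in the 5 bins from near to far, a 5.98-fold ratio of the ends (log2 2.58, 1.94 to 3.26). Bmp3 was at 10.6, 31.1, 56.6, 67.1 and 68.1 CPM, a 6.42-fold ratio. Both were lowest in the nearest bin, and the last 2 bins of Bmp3 did not differ beyond their intervals.

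Nog was at 7.17 CPM nearest the plane and 24.1 CPM farthest from it, 3.37-fold, and Bmp2 at 10.3 and 28.4 CPM, 2.75-fold. Gdf5 ran the other way, with 8.60 and 4.86 CPM in the first bins and no UMI among 200 spots in the last. With 3 UMIs set for the last bin, Gdf5 was 4.04-fold higher nearest the plane. The exact interval of its log2 ratio, farthest over nearest, had its upper end at -1.63. Bmp7 was at 1.72 and 7.81 CPM at the ends on 17 UMIs and fell below the minimum of 20. Grem1, Bmp5, Bmp6 and Chrd did not reach a 2-fold ratio. With spots of at least 1000 UMIs thinned to 1000 and the rest dropped, 1 member was higher and none lower. With the mean of log2(CPM + 1) over spots, 2 were higher and none lower. Gdf5, with 30 UMIs in the 297 nearest spots, was too sparse for that mean to fall by 1 log2 unit.

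**Figure D3:**
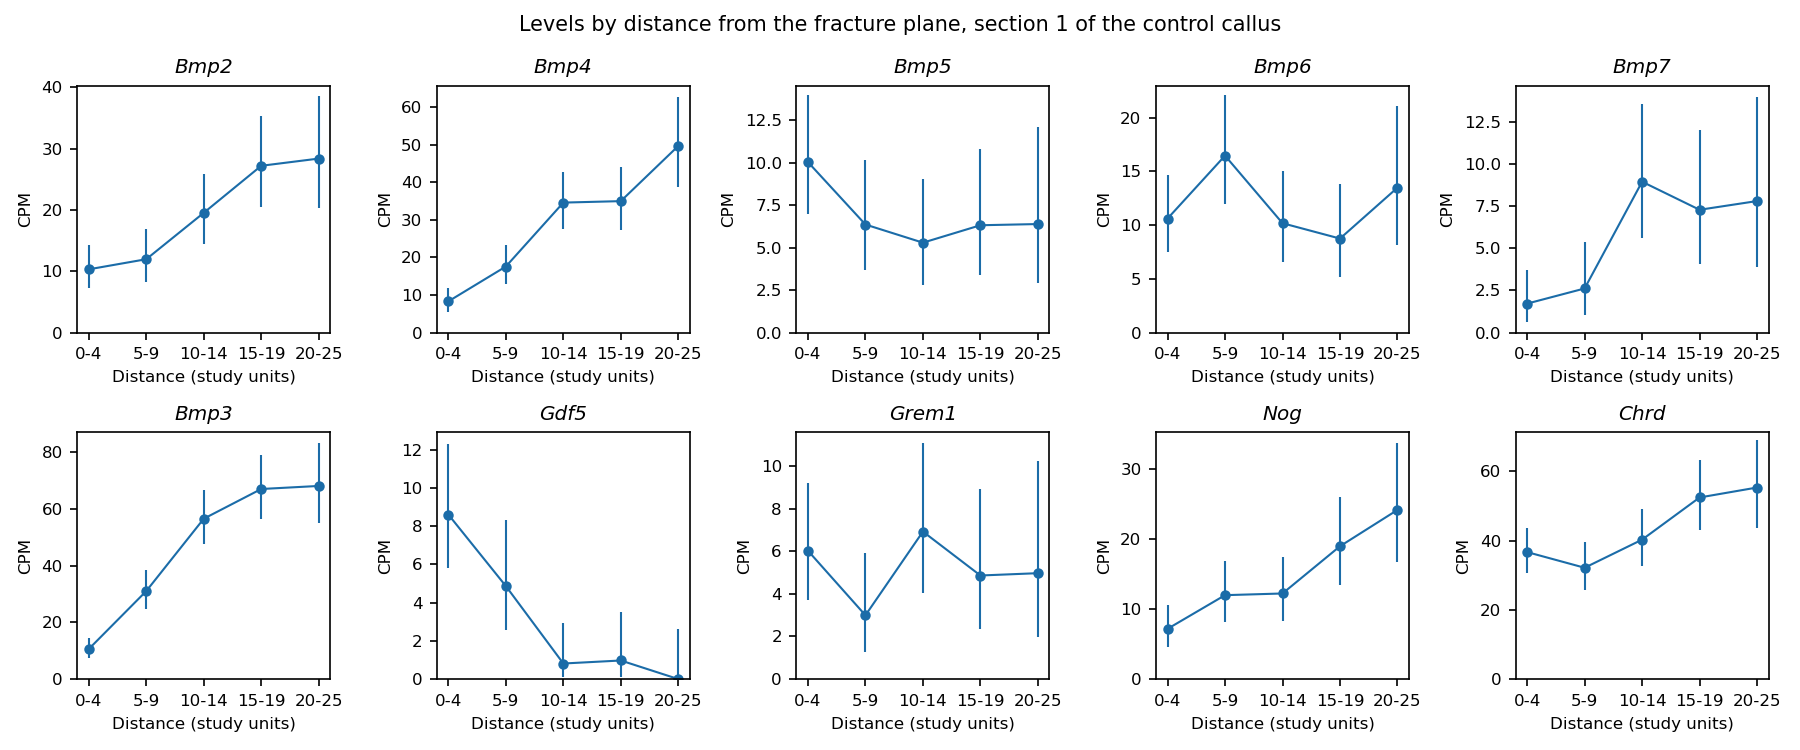
Pooled level in CPM (linear axes from 0) in 5 bins of distance from the fracture plane, in the study's units, for section 1 of the control callus. Points are pooled spots of a bin and bars are exact Poisson 95% intervals. Bmp3 and Bmp4 climb from 10.6 and 8.32 CPM to 68.1 and 49.7 CPM, and Gdf5 drops from 8.60 CPM to no UMI.

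Distance from region 11, which holds only part of the spots annotated as cartilage, gave a like order in both sections. The region itself is the nearest bin, so its UMIs are those already compared above and the order is not separate support. Control spots over 600 μm from that region had 3 members at least 2-fold above the region itself, Bmp2, Bmp3 and Bmp4, where 15.3% of 11785 genes were. None of the members that passed the minimum of UMIs was below (2.61% of genes). Gdf5 fell short of that minimum, with 27 UMIs in the region and 13 far from it, and was at 8.83 CPM in the region and 0.998 CPM beyond 600 μm, a log2 ratio of -3.15 (-4.22 to -2.14). Bmp3 was at 10.9, 24.2, 41.3 and 59.5 CPM in section 1 and at 7.39, 28.7, 36.3 and 35.3 CPM in section 2, within the region, up to 300 μm, up to 600 μm and beyond. Bmp4 was at 8.06, 21.4, 24.5 and 33.0 CPM and at 4.22, 13.8, 23.4 and 24.8 CPM. In section 2 the levels beyond 300 μm did not differ beyond their intervals. With regions 10 and 11 both counted as cartilage, Bmp4 alone passed the rule, and with the mean of log2(CPM + 1) over spots none did.

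Within woven bone the study separated 63 spots of low from 312 of high pseudotime. Nog was at 45.6 CPM (26.1 to 74.1) in the low and 18.4 CPM (14.0 to 23.7) in the high class, a log2 ratio of 1.31 (0.41 to 2.13), and Bmp2 at 48.5 CPM (28.2 to 77.6) and 20.9 CPM (16.2 to 26.5), 1.21 (0.35 to 2.00). Bmp3, at 88.4 and 82.3 CPM, and Bmp4, at 51.3 and 44.0 CPM, were close in the 2 classes. These classes were made from the transcriptomes of the same spots, in 1 section, so the values are a description.

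Between the genotypes, 4 of the 10 members were at least 2-fold lower in the Nf1Postn callus in both sections, Bmp3, Bmp7, Gdf5 and Grem1, and none was higher. All 10 passed the minimum of 20 UMIs in each section, summed over both genotypes. Of 13410 genes, 1.5% were lower and 5.79% higher by this rule. Bmp7, Gdf5 and Grem1 passed that minimum only through the control, since each had fewer than 20 UMIs in each Nf1Postn section. The share of 1.5% is over genes of all totals, so it is not a like measure for genes this sparse. The median pooled log2 ratio was -0.65 over the members and -0.05 over all genes tested. Bmp3 was at 40.3 CPM (37.0 to 43.8) and 32.4 CPM (29.3 to 35.8) in sections 1 and 2 of the control, and at 15.6 CPM (11.7 to 20.4) and 12.4 CPM (9.71 to 15.5) in Nf1Postn. It was 2.70-fold lower over both sections, with a log2 ratio of -1.43 (-1.71 to -1.16), and the groups did not overlap.

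Bmp7 was at 4.65 CPM (63 UMIs) and 4.12 CPM (50 UMIs) in the control against 2.02 and 1.17 CPM in Nf1Postn, where each section held 7 UMIs. Gdf5 was at 3.61 and 2.56 CPM in the control against 1.16 and 0.668 CPM, each from 4 UMIs. Grem1 was at 4.87 and 8.25 CPM against 1.73 CPM (6 UMIs) and 1.84 CPM (11 UMIs). The pooled log2 ratios were -1.57 (-2.49 to -0.76), -1.88 (-3.14 to -0.83) and -1.84 (-2.66 to -1.12). No section of Nf1Postn reached the lower control section for any of these genes, which was also so for Bmp2, Bmp4, Nog and Chrd. Without the dense place in section 2, Grem1 was still 2.89-fold lower over both sections. As an alternative, spots under 1000 UMIs (128 control and 328 Nf1Postn) were dropped and the others thinned to 1000. Bmp3 alone then passed the rule among the 7 members that could be tested. With the mean of log2(CPM + 1) over spots, in which shallow spots weigh as much as deep ones, none did. Bmp7, Gdf5 and Grem1 had a UMI in 3.05%, 2.19% and 4.08% of control spots. Their means were thus too near 0 to fall by 1 log2 unit, and that setting cannot decide on these genes.

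Bmp2, Bmp4 and Nog were lower without reaching 2-fold in both sections. Their pooled log2 ratios were -0.58 (-0.90 to -0.26), -0.57 (-0.84 to -0.30) and -0.72 (-1.10 to -0.36). For Bmp4 the section 1 interval included 0 (-0.76 to 0.03). Chrd was at 40.6 and 45.4 CPM in the control and at 37.5 and 33.8 CPM in Nf1Postn, a log2 ratio of -0.29 (-0.47 to -0.11) whose section 1 interval included 0. Bmp5 was at 7.08 and 9.24 CPM in the control and at 8.66 and 7.69 CPM in Nf1Postn, a pooled ratio of -0.01 (-0.41 to 0.38). Bmp6 was at 12.3 and 10.2 CPM against 11.3 and 12.5 CPM, 0.09 (-0.23 to 0.41). For both of these the 2 sections ran in opposite directions.

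**Figure D4:**
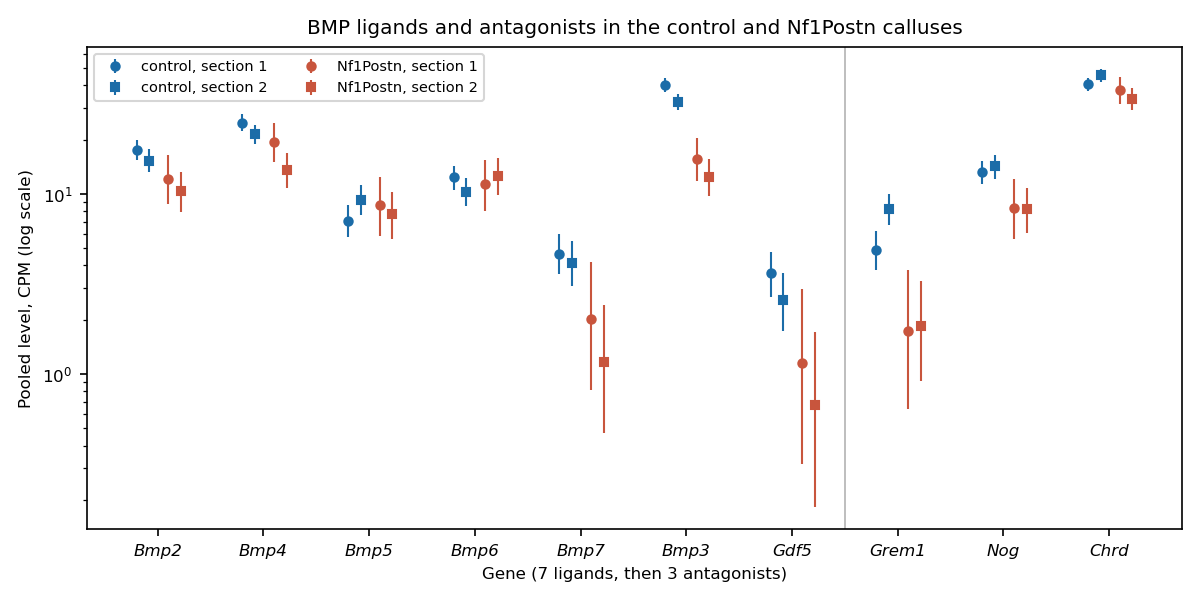
Pooled level of each gene in CPM (log axis) in sections 1 (circles) and 2 (squares) of the control (blue) and Nf1Postn (red) callus, with exact Poisson 95% intervals. For every gene but Bmp5 and Bmp6 both red points lie below both blue points, and for Bmp5 and Bmp6 the colors overlap. In section 1 the bars of the genotypes overlap for every gene but Bmp3.

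The calluses did not hold the same tissue. Region 1, the main place of Bmp3, Bmp4, Bmp7 and Nog, took 21.7% of the control and 0.725% of the Nf1Postn spots (755 against 21). Region 11, where Gdf5 was highest, took 217 control spots and 1 Nf1Postn spot, and region 3, with 47.0% of the control UMIs of Grem1, 607 and 64. Muscle-gene region 2 took 2.65% and 20.6%. Within region 3, dense place included, Grem1 was at 11.1 CPM (78 UMIs) in the control and 1.57 CPM (1 UMI) in Nf1Postn. The log2 ratio was -2.82 (-8.14 to -0.30), and section 1 alone gave no ratio. Within region 6, Grem1 was at 6.89 CPM (7 UMIs) and 6.93 CPM (6 UMIs).

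With the regions weighted to the same mixture in both genotypes, none of the members was 2-fold lower in both sections, where 0.357% of 13156 genes were. This used the 10 regions with at least 20 spots of each genotype and some of each in both sections, so that regions 10, 11 and 12 could not enter. The ratio of Bmp3 became -0.65, that of Grem1 -0.91, that of Gdf5 -0.09 and that of Bmp7 -1.15 on the log2 scale, as means of the sections. The Nf1Postn spots of these regions held 17 Grem1, 8 Gdf5 and 14 Bmp7 UMIs. For Bmp3, region 1 entered with 9 Nf1Postn UMIs and log2 ratios of -2.40 and 0.44 in sections 1 and 2. Region 11, with 33.8% of the control Gdf5 UMIs, was not in this mixture. A second mixture used the 8 regions with at least 10 spots of each genotype in each section, a limit chosen after seeing the data. It left out regions 2 and 13 too. In it, 0.399% of 13020 genes were lower in both sections. Bmp7 was the member among them, at -1.82, on 9 Nf1Postn UMIs. Of these, 5 came from region 4 and 3 from region 5, both rich in muscle genes. Without the 5 regions rich in muscle genes, Bmp7 and Grem1 were lower in both sections, where 0.382% of 12830 genes were. The Nf1Postn spots that remained, however, held 1 Bmp7 UMI in section 1 and 0 in section 2, and 4 and 8 Grem1 UMIs. Bmp2, Bmp4 and Chrd stood at 0.22, 0.07 and 0.10 there, and Nog at -0.80. Bmp6 was at -0.20 there, and 35 of its 114 Nf1Postn UMIs lay in the regions kept. Bmp5, at -0.01 over all spots, was at 0.75 in the first mixture, 0.68 in the second and 0.55 without the muscle-rich regions. These rested on 74, 60 and 44 Nf1Postn UMIs, and Bmp5 passed the rule in none of these settings. The part of tissue mixture in the ratios of Bmp3, Bmp7, Gdf5 and Grem1 cannot be told apart from a change within a tissue with 1 mouse per genotype.

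**Figure D5:**
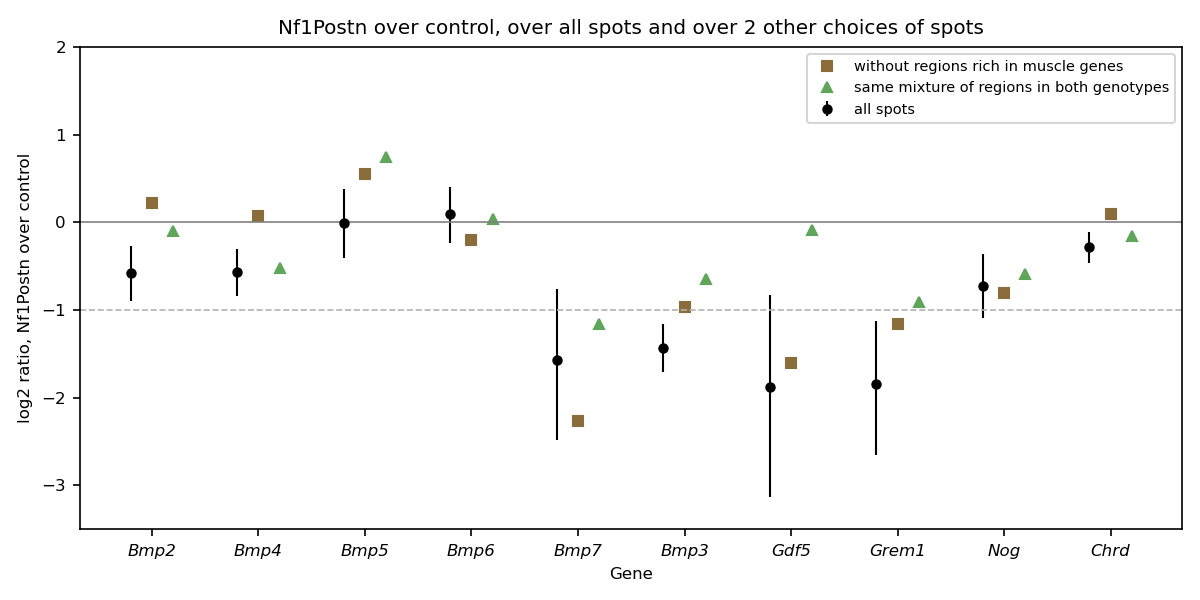
Log2 ratio of Nf1Postn over control for each gene, over all spots with its exact 95% interval (black), without the regions rich in muscle genes (brown) and with the same mixture of regions in both genotypes (green). The dashed line marks a 2-fold lower level. With the same mixture, Bmp3 moves from -1.43 to -0.65. That mixture includes region 1, with 9 Bmp3 UMIs in 21 Nf1Postn spots, and the green values carry no interval. Gdf5 moves from -1.88 to -0.09 and Bmp7 from -1.57 to -1.15, on as few as 8 and 14 Nf1Postn UMIs.

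Within regions, 34 pairs of member and region could be compared between genotypes in both sections. Of these, 0 were higher and 2 lower, where 1.36% and 1.35% of the pairs of all genes were, and both lay in region 5, which was led by Myh8, Tnnt2, Myh3 and Myog, genes of regenerating muscle. There, 1.31% of 10887 genes were lower. Bmp4 was at 23.4 CPM (37 UMIs) in the control and 10.4 CPM (24 UMIs) in Nf1Postn, a log2 ratio of -1.16 (-1.97 to -0.38), and Bmp3 at 16.4 CPM (26 UMIs) and 4.34 CPM (10 UMIs), -1.92 (-3.13 to -0.82). In region 6, Bmp3 was at 127 and 66.8 CPM in the control against 24.3 and 35.0 CPM in Nf1Postn, 2.86-fold lower over both sections, with a log2 ratio of -0.93 in section 2 that missed the rule. Region 6 was the bone-gene region that both calluses filled, with 302 control and 328 Nf1Postn spots.

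Region 1 could hardly be compared. Its 21 Nf1Postn spots held 9 Bmp3, 4 Bmp4 and 3 Nog UMIs, so that the log2 ratios of -0.80 (-1.94 to 0.13), -1.14 (-3.03 to 0.23) and -0.69 (-2.98 to 0.88) all had intervals that included 0. Bmp7 and Grem1 had no UMI in these spots, and 3 UMIs, the number set for a count of 0, would be a level above that of the control. In region 8, with 234 and 239 spots, Chrd was at 68.8 and 51.8 CPM, a log2 ratio of -0.41 (-0.92 to 0.09), and Bmp4 at 30.6 and 24.0 CPM, -0.35 (-1.12 to 0.40).

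Taking ligands and antagonists together, the 3 antagonists made up 37.9% (36.4 to 39.4, exact binomial) of the 4266 member UMIs of the control and 41.9% (38.9 to 45.0) of the 1019 of Nf1Postn, a difference of 4.0 percentage points (0.64 to 7.36). The shares were 34.7% and 41.6% in the control sections and 40.4% and 42.9% in the Nf1Postn sections, so the section 2 control lay within the Nf1Postn range. Without Chrd and Bmp3, the members with most UMIs, the difference turned to -6.19 percentage points. Within the control the share was 29.6% (27.5 to 31.8) in region 1, 46.4% (40.8 to 52.2) in region 11 and 49.9% (46.7 to 53.1) in region 3. The share compares probe counts and not amounts of protein.

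In the control, 104 spots held both Nog and Bmp3, which was 34.7% of the Nog spots, while 19.7% of all control spots had Bmp3. For Bmp4 this share was 22.7% of the Nog spots against 14.3% of all control spots. In Nf1Postn, 1 of the 72 Nog spots held Bmp3, and 3.87% of all its spots did. Deeper spots more often hold a UMI of any gene, and the part of depth in these shares was not tested.

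Of 50 other genes of the BMP pathway, 47 were tested, by the rule that found 1.5% of all genes lower and 5.79% higher. Of the 47, 4 were lower and 1 was higher in Nf1Postn. The lower genes were Smad6, an inhibitory SMAD that BMPs induce, at 26.2 CPM in the control and 9.85 CPM in Nf1Postn over both sections (log2 -1.41, -1.74 to -1.10), the pseudoreceptor Bambi at 78.0 and 28.3 CPM (-1.46), the ligand Bmp8a at 15.3 and 6.67 CPM (-1.20), and the antagonist Chrdl2 at 10.0 and 3.18 CPM (-1.66). Hjv, a BMP co-receptor made by skeletal muscle, was higher at 8.68 and 46.2 CPM (2.41, 2.17 to 2.65). Muscle markers were also higher in Nf1Postn, and Hjv was among the leading genes of region 12, which held 2 control and 191 Nf1Postn spots.

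None of the 6 receptors passed the rule, and their median log2 ratio was 0.13. None of the 8 targets, among them the Id genes, passed it either, with a median of -0.84. Medians were -0.40 for the 6 SMADs, -0.29 for the 9 other ligands tested and -0.38 for the 18 other antagonists and regulators tested, each read against -0.05 over all genes. With the same mixture of regions, none of the other pathway genes was lower and 2 were higher, where 0.357% and 2.25% of all genes were.

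The genes whose levels ran most like a member's were sought over 21 points, the control regions of each section with at least 20 spots, by Pearson's r of log2(CPM + 1). Bmp3 was closest to Slc36a2 (r = 0.97), Chn1 (0.95) and Tnfrsf19 (0.93), Bmp4 to Spi1 (0.93), Csf1r (0.93) and Rapgef5 (0.92), and Nog to Satb1, Ccdc12 and Lrrc28 (0.90, 0.90 and 0.86). Chrd was closest to Fibp, Limk2 and Cmtm3 (0.97 each) and Bmp6 to Champ1, Lmbrd2 and Socs2 (0.91, 0.89 and 0.89). Bmp2 had Odr4, Tspan31 and Rerg (0.91, 0.90 and 0.90) and Bmp5 had Zfp319, Zkscan6 and Zfp664 (0.84, 0.83 and 0.80). Among the members, Bmp3 and Bmp4 had 0.83 and Bmp3 and Nog 0.58. One point, region 13 of section 1, rested on 22 spots so shallow that the single Bmp2 UMI in them made 139 CPM. Over the other 20 points the values for Bmp2 were 0.87, 0.86 and 0.86, those for Chrd 0.87, 0.86 and 0.85, and those for Bmp3 with Bmp4 and with Nog 0.66 and 0.29. The points share the animal, the block and the depth of their regions, which were shallow in part, and many genes were searched, so these values only describe the pattern.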

How the data were processed

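The authors hybridized Visium probes for fixed mouse tissue to 2 sections, read here as cut from 1 block. Space Ranger 1.3.0 and build mm39 are named in the submitters' notes. The deposited tables hold raw UMI counts per gene and spot, treated here as estimated counts because 9 named entries are not whole. 1 entry without a gene name (11.6 and 6.8 UMIs) was left out. The authors also deposited the genotype of each spot and its grid position. Their annotation of 1344 section 1 control spots (tissue class, distance from the fracture plane, pseudotime class) was joined by barcode. The 2 sections share 2711 barcodes, which are grid positions and not shared cells. 5 spots without genotype, with 0 member UMIs, stayed out.

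Levels (CPM) are UMIs summed over spots per 1000000. Ratios carry exact conditional 95% intervals, a group at 0 was set to 3 UMIs, and no ratio was given where that limit lay above the other group. A gene counted as lower or higher with at least a 2-fold ratio the same way in both sections and at least 20 UMIs in each (within regions, over both). Where genotypes were compared, these UMIs were summed over control and Nf1Postn. No count test was run, since each genotype was read as 1 mouse. Regions were found with 20 principal components of log2(CPM + 1), 15 neighbors and Leiden clustering (leidenalg 0.10.2, resolution 0.5) over 16845 genes in at least 0.3% of spots. Doublets do not apply to spots. Trimmed mean of M values (TMM) factors came from edgeR 4.0.16. The members, gene lists and rules were chosen with earlier results of these data known. The named genes were the members, Nf1, other pathway genes past the rule, the 3 most alike genes of members with at least 200 UMIs, and leading genes of regions, the highest ratios among genes with at least 500 UMIs. Shares thinned to 1000 UMIs, other resolutions, a section left out and the other alternatives are given at the end.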

Additional observations from a re-analysis of the deposited data

Results flagged for a closer look

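For 3 members the ratio of Nf1Postn to control had opposite signs in different regions, the same sign in both sections of each. The difference between regions was not tested. Some section values were near 0, as 0.007 for Bmp2 in region 6 of section 1 and -0.045 for Bmp4 in region 1 of section 2. In regions 1 and 7, Bmp4 rested on 4 Nf1Postn UMIs each. Bmp4 had log2 ratios of -1.14 in region 1, -1.16 in region 5, -1.09 in region 7 and -0.35 in region 8, but 0.62 in region 6, the region led by Mepe and Bglap. Bmp2 was at -0.67 in region 8 and 0.30 in region 6. Bmp5 was at -1.31 in region 5 and 0.41 in region 3. The intervals of the values in region 5 did not include 0, and those of the values in the other regions named here did.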

How the results depend on the processing

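Each genotype was read as 1 mouse, most members have few UMIs, and the intervals cover counting error only. Of 99 values for single members by genotype under the alternatives, 76 moved by no more than their counting error, 23 moved further and 0 changed direction while called. Members that were not called could change sign. Without the muscle-rich regions Bmp2 went from -0.58 to 0.22, Bmp4 from -0.57 to 0.07 and Chrd from -0.29 to 0.10. In the same setting Bmp5 went from -0.01 to 0.55 and Bmp6 from 0.09 to -0.20. The 4 members lower in Nf1Postn became 0 with the mean of log2(CPM + 1) over spots, 1 with spots thinned to 1000 UMIs (of 7 tested), 0 with the same mixture of regions, 1 with that mixture over regions with at least 10 spots in each section and genotype, and 2 without the muscle-rich regions, the last 2 chosen after seeing the data. With TMM factors, spots with at least 1000 UMIs, no filter or either section alone, 4 remained in number. Over all genes, 201 lower and 776 higher became 2527 and 72 with the mean of log2(CPM + 1). They became 358 and 630 with TMM factors, and 214 and 2300 without the filter. When thinned they were 177 and 411, with the same mixture 47 and 296, and without the muscle-rich regions 49 and 360. For a gene with a UMI in few spots, the mean of log2(CPM + 1) lies too near 0 to differ by 1 log2 unit. A missing call in that setting says nothing on such genes.

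The other pathway genes, 4 lower and 1 higher, became 13 and 0 with the mean of log2(CPM + 1), 2 and 2 when thinned, 0 and 2 with the same mixture (1 and 2 over the regions with at least 10 spots in each section and genotype), 1 lower without the muscle-rich regions and 2 higher without the filter. Leaving out a section gave 4 to 9 lower and 1 to 3 higher. For region pairs, 5 lower and 6 higher became 1 and 3 with the mean of log2(CPM + 1). They became 14 to 18 and 9 to 11 with a section left out, since 1 section then sufficed. Leiden resolution 0.3 gave 6 lower and 5 higher, and 1.0 gave 7 and 7, over 6 and 11 regions numbered anew. At 0.3 the genes with a higher pair stayed the same, while Bmp2 and Nog were also lower in a region. At 1.0 Bmp4 was higher in no region, Bmp5 was higher in a region, and Nog was also lower in a region. Within regions, 2 lower and 0 higher became 0 lower with the mean of log2(CPM + 1), and 3 lower without the filter and with all genes in the clustering. With a section left out they became 6 to 12 lower and 2 higher. Leiden resolution 0.3 gave 2 lower pairs (Bmp2 and Bmp3) and 1 higher (Bmp2), and 1.0 gave 2 lower (both of Bmp2) and 1 higher (Bmp2). Bmp4 was thus lower within regions at neither resolution, and Bmp3 only at 0.3. From the fracture plane, 1 lower and 4 higher became 0 and 2 with the mean of log2(CPM + 1) and 0 and 1 when thinned. From cartilage, 0 lower and 3 higher became 0 higher with the mean of log2(CPM + 1), 1 higher with the wider cartilage (chosen after seeing the data), and 0 to 1 lower and 5 higher with a section left out. The antagonist share difference of 4.0 turned to -6.19 percentage points without Chrd and Bmp3 and ran from 1.3 to 5.71 by section. For the region pairs, the pairs within regions and both distances, the share of all genes called is given only for the main setting. Their counts under the alternatives therefore say nothing on the members in particular. The cause of the other changes was not tested. No paired analysis was possible because both sections were read as coming from the same pair of mice, and no test was run.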
